A study of Homo sapiens with 5 samples.

Results

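Small nucleolar RNAs (snoRNAs) and the long non-coding genes that carry them were described in U2OS cells, a line from a human osteosarcoma, in 5 libraries that differ in the amount of the transcription factor E2F1. Members were all gene names of the count table that begin with SNORD, SNORA or SNHG, plus GAS5, with at least 10 reads in at least 1 library, so they were chosen by name and by their own read counts. This kept 172 of 364 such names, among 18910 of 27992 gene names that met the same minimum. They were 94 of 242 SNORD names (box C/D snoRNAs), 64 of 108 SNORA names (box H/ACA snoRNAs) and 14 of 14 host names (SNHG genes and GAS5). Of the 192 names left out, 115 had no read in any library. The set was proposed with results of these data known, so its counts and medians are descriptions.

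The parental library came from U2OS without the construct. The other 4 came from U2OS pTRIPZ-YFP-ER-E2F1 cells, in which doxycycline induces a fusion of YFP, an oestrogen receptor part that binds OHT, and E2F1. Flow cytometry parted these by YFP into 4 fractions: YFP-high, YFP-medium, YFP-low and YFP-negative. Values given in a row below follow the order parental, negative, low, medium and high YFP. Per the labels, cells of all 5 groups, parental included, grew with 8% serum, were given doxycycline (500 ng/ml, 48 h) and then OHT (90 nM) for 20 h more. Each group had 1 library, so no spread between samples could be measured and no p-value is given. The YFP-negative fraction carries the construct, and no culture or clone of the line is named in the labels.

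snoRNAs are short nucleolar RNAs that guide chemical marks on ribosomal and spliceosomal RNA by base pairing. Box C/D snoRNAs guide 2′-O-methylation with fibrillarin, and box H/ACA snoRNAs guide pseudouridylation with dyskerin. Most human snoRNAs are cut from introns of host genes, which either code for proteins, many of them of the ribosome, or, like GAS5 and the SNHG genes, yield a spliced RNA with little coding capacity. Several host RNAs begin with a C and a run of pyrimidines, the 5′ terminal oligopyrimidine start of ribosomal protein mRNAs, and several are degraded by nonsense-mediated decay.

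The 10 snoRNAs below were chosen after their values were seen, as those that show the largest differences and the exceptions. They are GENCODE 29 transcripts on GRCh38, given 5′ to 3′ as DNA letters, and capitals mark an exact box C (TGATGA, searched in the first 50 bases), the last box D (CTGA) or an ACA box within 5 bases of the 3′ end. SNORD104 is the box C/D member with the most negative log2 ratio in YFP-high.
SNORD104: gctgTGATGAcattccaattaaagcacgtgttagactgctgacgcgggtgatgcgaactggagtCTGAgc
The next 3 lie in 1 host, RABGGTB, and were lower in YFP-high together.
SNORD45A: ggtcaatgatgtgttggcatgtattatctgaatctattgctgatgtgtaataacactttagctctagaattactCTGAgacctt
SNORD45B: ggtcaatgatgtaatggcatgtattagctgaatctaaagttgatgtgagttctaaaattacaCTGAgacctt
SNORD45C: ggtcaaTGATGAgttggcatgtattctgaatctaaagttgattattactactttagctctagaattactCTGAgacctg
SNORD22 lies in SNHG1, whose own level moved the other way.
SNORD22: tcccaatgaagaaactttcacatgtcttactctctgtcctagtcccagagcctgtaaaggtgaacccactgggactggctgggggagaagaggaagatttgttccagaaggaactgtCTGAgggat
SNORD110, in NOP56, stood at 2.57 CPM (reads scaled to library size, defined below) in both YFP-negative and YFP-high.
SNORD110: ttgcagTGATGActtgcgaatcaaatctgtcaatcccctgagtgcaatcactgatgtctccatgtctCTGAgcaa
The next 3 are box H/ACA snoRNAs that were lower in YFP-high.
SNORA33: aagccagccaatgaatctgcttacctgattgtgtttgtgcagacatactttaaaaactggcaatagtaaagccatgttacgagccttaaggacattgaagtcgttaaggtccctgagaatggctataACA
SNORA70: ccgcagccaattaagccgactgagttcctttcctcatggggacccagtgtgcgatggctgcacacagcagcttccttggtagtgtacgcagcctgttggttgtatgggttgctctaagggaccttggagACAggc
SNORA26: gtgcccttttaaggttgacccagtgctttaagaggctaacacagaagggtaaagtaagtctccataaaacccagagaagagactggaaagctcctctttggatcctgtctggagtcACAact
SNORA80B, in ODC1, was the member that was higher in YFP-high by the 2-fold rule used below.
SNORA80B: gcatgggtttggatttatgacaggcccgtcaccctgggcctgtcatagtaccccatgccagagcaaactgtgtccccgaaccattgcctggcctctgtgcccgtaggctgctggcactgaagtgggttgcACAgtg
SNORD104 maps to chr17:64146083-64146152 (plus strand) in an intron of SNHG25, a host not analysed here. The SNORD45 genes map to chr1:75787889-75787972, chr1:75789477-75789548 and chr1:75787072-75787150 on the plus strand for A, B and C, each overlapping an annotated exon of RABGGTB. SNORD22 maps to chr11:62852910-62853035 (minus strand) over an exon of SNHG1, and SNORD110 to chr20:2654212-2654286 (plus strand) over an exon of NOP56. SNORA33 maps to chr6:132817219-132817348 (plus strand) in an intron of RPS12, and SNORA70 to chrX:154400281-154400415 (plus strand) over an exon of RPL10. SNORA26 maps to chr4:52713249-52713370 (plus strand) in an intron of DANCR, the current name of SNHG13. SNORA80B maps to chr2:10446714-10446849 (minus strand) in an intron of ODC1. An exon here is that of any annotated transcript of the host, so the same bases can be intron in another transcript.

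A transcript sequence was found by name for 80 box C/D and 56 box H/ACA members. Exact TGATGA stood in the first 50 bases of 50 of the 80 box C/D members, against 73.8% of all SNORD transcripts and 1.44% of all transcripts of the annotation. CTGA stood in the last part, past 66.7% of the length, in 79 of 80. ACA stood within 5 bases of the end in 50 of 56 box H/ACA members, against 89.4% of all SNORA and 5.09% of all SNORD transcripts. The median length was 79.5 bases for box C/D members (64 to 237) and 134 bases for box H/ACA members (122 to 701). A match describes letters and not a working box.

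All 3 classes were highest in YFP-negative cells and decreased with YFP. The summed level of the 94 box C/D members, in reads per 1000000 scaled by the trimmed mean of M values (CPM), was 56.7 in the parental library and 89.4, 66.7, 56.4 and 43.4 in the fractions from negative to high YFP. The 64 box H/ACA members summed to 34.7, 53.0, 37.4, 33.0 and 24.9 CPM in the same order. The 14 hosts summed to 339, 438, 342, 292 and 267 CPM. YFP-negative thus stood above parental as well as above every other fraction, and the 3 steps down from it had the same order in each class.

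**Figure D1:**
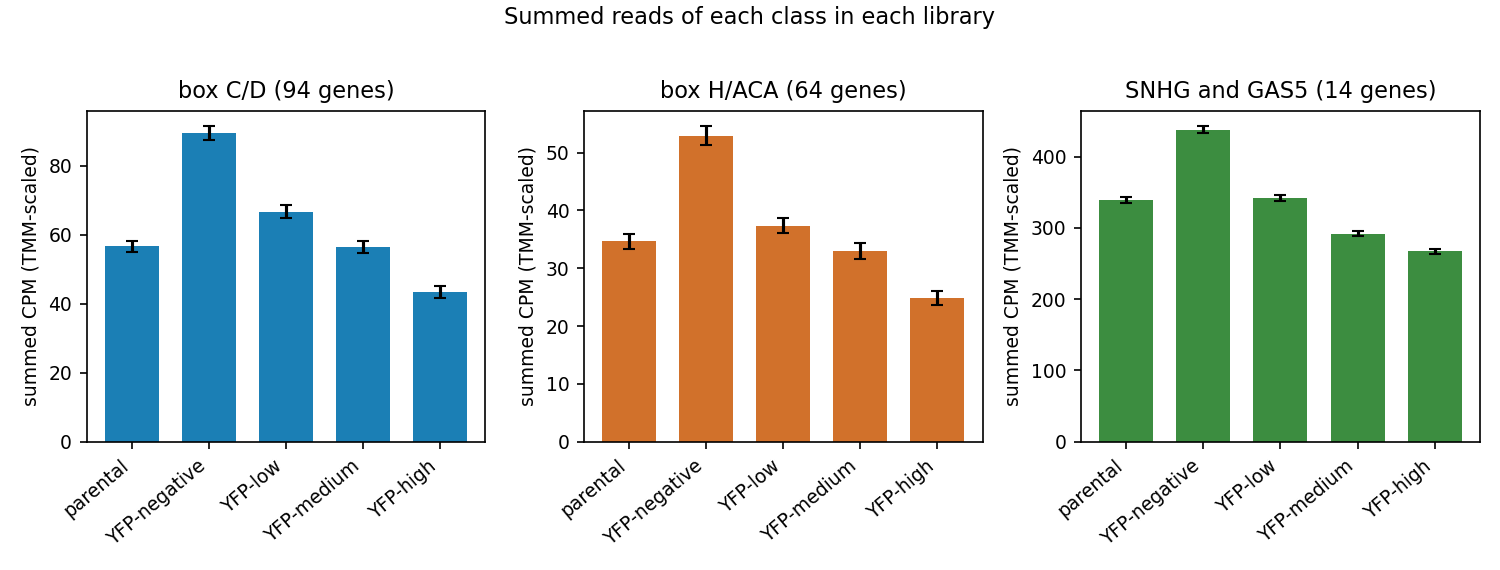
Summed CPM (vertical axes, each from 0) of box C/D snoRNAs, box H/ACA snoRNAs and SNHG genes with GAS5 in the 5 libraries, 1 library per bar, with error bars for 95% Poisson counting error. YFP-negative is the highest bar and YFP-high the lowest in each panel: 89.4 and 43.4 CPM for box C/D, 53.0 and 24.9 CPM for box H/ACA, 438 and 267 CPM for hosts.

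Against YFP-negative, the box C/D sum in YFP-high was 2.06-fold lower (exact 95% counting interval 1.97 to 2.15). The box H/ACA sum was 2.13-fold lower (2.01 to 2.26), and the host sum was 1.64-fold lower (1.61 to 1.67). Intervals of both snoRNA classes overlapped each other and lay wholly above that of the hosts. Against parental, the same sums in YFP-high were only 1.30-fold, 1.39-fold and 1.27-fold lower, and YFP-negative was 1.58-fold, 1.53-fold and 1.29-fold above parental. Without the 3 most abundant members of each class, YFP-high was 2.22-fold (2.11 to 2.34), 1.83-fold (1.71 to 1.95) and 1.69-fold (1.64 to 1.73) below YFP-negative. The snoRNA classes then no longer overlapped each other, and box H/ACA overlapped the hosts. These intervals cover counting error only and take each read as a molecule of its own, which PCR copies are not.

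Facts of the whole series that touch these values are few. Gene reads numbered 70.7 M to 76.5 M per library. E2F1 stood at 85.7, 107, 162, 361 and 997 CPM, so it followed the YFP gates, and reads of the construct are counted with those of the endogenous gene. Reads outside annotated genes made up 9.60%, 9.86%, 9.11%, 9.41% and 11.03% of all reads in the count table, in the same order. Reads that overlapped more than 1 gene, and were counted for none, made up 4.06% to 4.33%. The osteoblast markers RUNX2, ALPL, SPP1 and COL1A1 were present in all libraries. COL1A2 had only 16 to 31 reads, and BGLAP, SP7 and IBSP had at most 7 reads. The 8 osteoblast markers summed to 3326 CPM in parental and to 1315, 1136, 995 and 806 CPM in the fractions, most of it COL1A1. The 4 epithelial markers summed to 455 to 569 CPM, most of it KRT8 and KRT18, while EPCAM and CDH1 stood at 2.52 to 11.5 CPM. The 4 leukocyte and 3 endothelial markers summed to at most 0.694 and 2.98 CPM. The part of these differences in the snoRNA values was not tested. In bulk RNA, fewer cells that hold a transcript and less of it per cell cannot be told apart.

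Members were called higher or lower when log2((CPM + 0.5)/(CPM + 0.5)) passed 2-fold and the counting interval excluded no change. The 0.5 CPM equals 31.9 to 41.4 reads, about as many as the median member reached in its highest library (42 reads for box C/D, 39 for box H/ACA, 2000 for hosts), so the log2 values of low snoRNAs are pulled towards 0. In YFP-high against YFP-negative, 27 of 172 members were called lower and 1 higher. Of all 18910 genes, 9.31% were called lower and 16.9% higher. The lower calls were 14 of 94 box C/D members, 7 of 64 box H/ACA members and 6 of 14 hosts. In YFP-medium, 8 members were called lower (5, 1 and 2 by class) beside 1.86% of all genes, and 0 higher beside 7.69%. In YFP-low, 0 were called in either direction, beside 0.0529% lower and 1.62% higher among all genes. In YFP-negative against parental, 3 were called higher (SNORD110, SNORD45B and SNHG15) beside 1.84% of all genes, and 0 lower beside 2.3%. In YFP-high against parental, 10 were called lower beside 12.0% of all genes, and 2 higher (SNORA80B and SNORD110) beside 17.9%.

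Direction was more uniform than size. The median log2 ratio in YFP-high against YFP-negative was -0.39 for box C/D, -0.37 for box H/ACA and -0.51 for hosts, beside -0.03 for all genes. Ratios lay below 0 for 83 of 94 box C/D members, 55 of 64 box H/ACA members and 9 of 14 hosts, beside 51.4% of all genes. In YFP-low the medians were already -0.19, -0.19 and -0.25, and in YFP-medium -0.30, -0.22 and -0.53, beside -0.02 for all genes in both. In YFP-negative against parental they were 0.29, 0.23 and 0.30, beside 0.00. The comparisons with YFP-negative share that library, and so does the last one, in which it stands on the other side of the ratio.

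**Figure D2:**
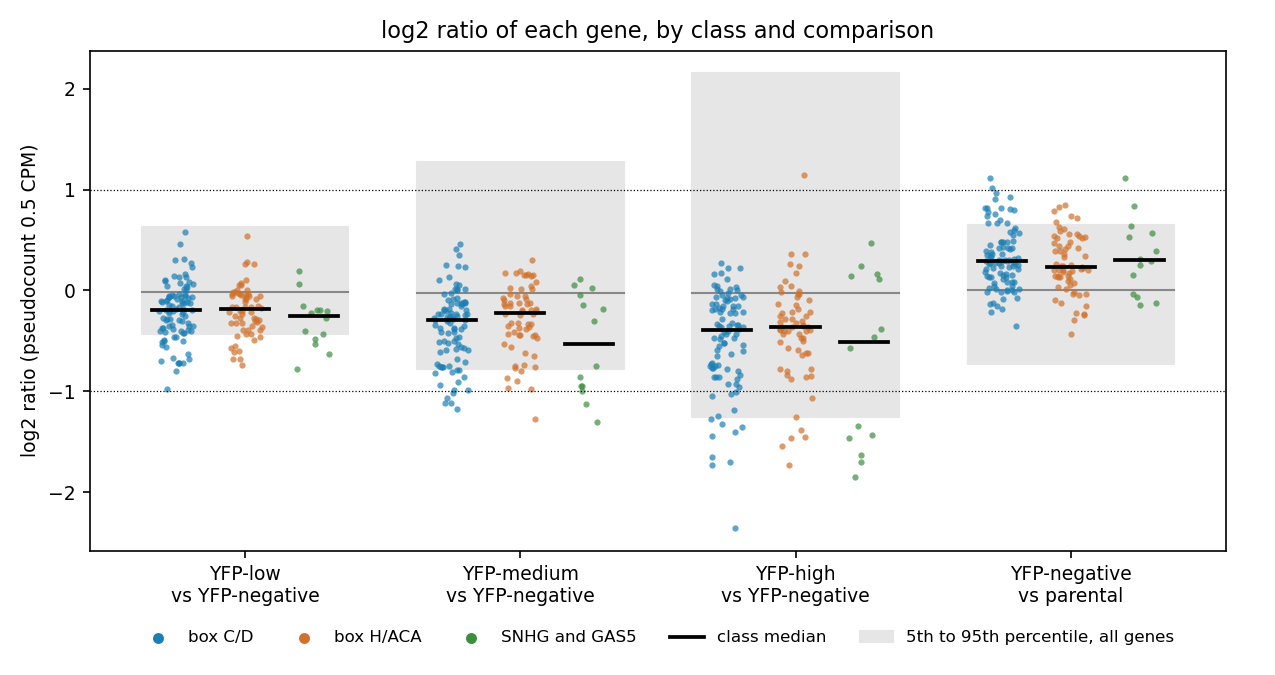
Log2 ratio (vertical axis, pseudocount 0.5 CPM) of each member in 4 comparisons (horizontal axis), 1 point per gene, with black bars for class medians, a grey line for the median of all genes, a grey band from the 5th to the 95th percentile of all genes and dotted lines at 2-fold. Class medians lie below 0 in the 3 comparisons with YFP-negative, down to -0.51 for hosts in YFP-high, and above 0 in YFP-negative against parental.

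A gene with its highest level in YFP-negative was the common case here. It held for 111 of 172 members, against 17.7% of all genes, while 15 members were highest in parental, 13 in YFP-high, 16 in YFP-medium and 17 in YFP-low. The level fell at every step from YFP-negative through YFP-low and YFP-medium to YFP-high in 42 box C/D members, 22 box H/ACA members and 7 hosts. That is 71 of 172, beside 24.8% of all genes. It rose at every step in 1 member, SNHG10, beside 20.9% of all genes. A low member that meets the read minimum in YFP-negative alone had to differ from the other libraries, and 7 members did so. Members with at least 10 reads in all 5 libraries numbered 104, and 20 of them were called lower in YFP-high. Of all 18910 genes, at any coverage, 9.31% were called lower. A share over genes with at least 10 reads in all 5 libraries is not given.

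By the counting interval alone, a rule added after the values were seen, 65 of 172 members were lower in YFP-low (30.3% of all genes). The number was 82 (36.8%) for YFP-medium, then 99 (41.5%) for YFP-high. Higher by that rule were 7 (27.2%), 5 (34.2%) and 7 (40.3%). In YFP-negative against parental 83 were higher (33.1%) and 3 lower (33.1%). Most snoRNAs were thinly covered. The highest library held fewer than 100 reads for 77 of 94 box C/D and 50 of 64 box H/ACA members, and the 2-fold rule called 6 and 2 of these lower, beside 1.13% of the 4353 genes of that read range. By the interval alone, 40 of 77 and 23 of 50 were lower, beside 21.0% of the same range. At 100 reads or more but below 1000, the interval lay below no change for 15 of 17 box C/D and 12 of 14 box H/ACA members, beside 44.8%. Just inside the read minimum, with 10 reads as their highest value, were SNORA14A, SNORD36B and SNORD71. Just outside, with 9, were SNORA15, SNORA2A, SNORA9, SNORD82 and SNORD9.

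By the 2-fold rule, 6 of 14 hosts were called lower in YFP-high against YFP-negative, beside 9.31% of all genes. The rule sets this division, since 9 of the 14 had a log2 ratio below 0, beside 51.4% of all genes. SNHG3, which carries box H/ACA snoRNAs, had the largest host difference. It stood at 54.4, 65.1, 46.5, 33.4 and 17.7 CPM. It was highest in YFP-negative, lost level at each step, and in YFP-high lay below parental too, 3.68-fold below YFP-negative (3.45 to 3.92). SNHG8 stood at 19.5, 17.8, 13.4, 8.69 and 5.14 CPM, highest in parental and 3.47-fold lower in YFP-high than in YFP-negative (3.08 to 3.92). GAS5, a growth-arrest transcript whose introns hold a cluster of box C/D snoRNAs, stood at 34.2, 49.7, 34.4, 22.6 and 15.7 CPM. YFP-negative was its highest library, YFP-low lay near parental, and YFP-high was 3.16-fold below YFP-negative (2.95 to 3.39).

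SNHG4 stood at 5.83, 7.24, 4.03, 2.63 and 2.37 CPM, 3.06-fold lower in YFP-high than in YFP-negative (2.56 to 3.68). It and GAS5 were the hosts already called lower in YFP-medium. SNHG15 stood at 14.8, 32.7, 20.9, 16.7 and 11.6 CPM. It was the host called higher in YFP-negative against parental, so its 2.83-fold difference between YFP-high and YFP-negative (2.61 to 3.08) brought it only to a log2 ratio of -0.35 against parental. SNHG13, listed today as DANCR, stood at 76.1, 84.8, 62.7, 46.4 and 33.1 CPM, 2.56-fold lower in YFP-high (2.44 to 2.69). All of these hosts but SNHG15 were called lower in YFP-high against parental too, 5 of 14.

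The other 8 hosts passed no 2-fold rule against YFP-negative. SNHG1, the most abundant of them by reads, stood at 49.0, 76.8, 66.4, 74.6 and 91.1 CPM and was 1.19-fold higher in YFP-high than in YFP-negative (1.14 to 1.23). SNHG12 stood at 7.23, 13.3, 11.9, 13.9 and 14.8 CPM, 1.11-fold higher (1.02 to 1.21). Both had their lowest level in parental and showed no steady order among the 4 fractions. SNHG10 stood at 7.07, 6.35, 6.64, 6.93 and 8.98 CPM, 1.41-fold higher (1.25 to 1.60). SNHG5 stood at 10.5, 15.8, 18.1, 16.04 and 17.2 CPM, and SNHG9 had 88 to 123 reads in each library with an interval that included no change. SNHG6 (1.31-fold), SNHG11 (1.43-fold) and SNHG7 (1.49-fold) were lower in YFP-high, with intervals that excluded no change.

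**Figure D3:**
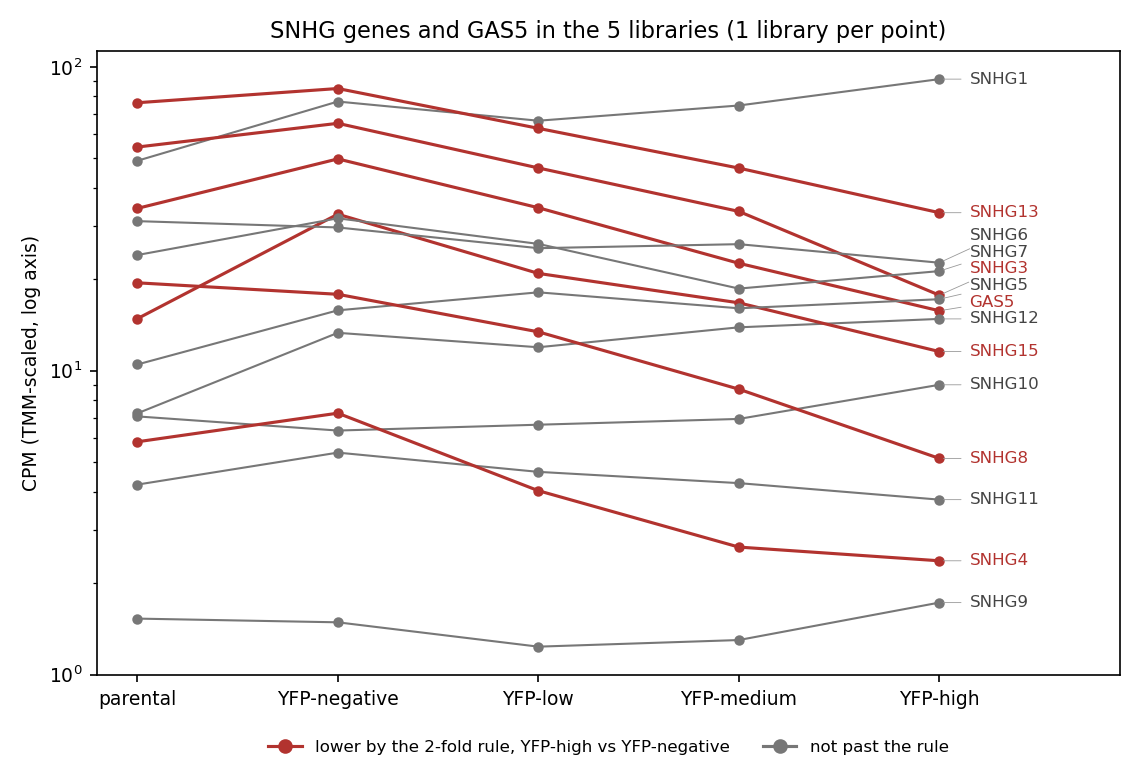
CPM (log axis) of the 13 SNHG genes and GAS5 in the 5 libraries (horizontal axis), 1 library per point, with the 6 hosts called lower in YFP-high against YFP-negative in red. Red lines descend from YFP-negative to YFP-high, as GAS5 from 49.7 to 15.7 CPM, while SNHG1 ends at 91.1 CPM, above its 76.8 CPM in YFP-negative.

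Levels of different hosts can be set beside each other only per length, in the authors' TPM, a unit scaled by transcript length and library, from a deposited table that lists 13 of the 14 hosts. In YFP-negative the order was SNHG6 at 629 TPM, SNHG13 at 414, SNHG8 at 166, GAS5 at 90.1, SNHG3 at 79.4 and SNHG1 at 77.2, with SNHG11 last at 5.68 TPM. In YFP-high it was SNHG6 at 426, SNHG13 at 147, SNHG1 at 84.2, SNHG5 at 58.3, SNHG8 at 43.2, GAS5 at 26.2 and SNHG3 at 19.9 TPM. SNHG1 and SNHG5 thus moved ahead of GAS5, SNHG8 and SNHG3 in that order. Fewer reads per TPM mean a shorter transcript length in that table. Reads per TPM were 0.0886, 0.198 and 0.374 times those of GAS5 for SNHG6, SNHG8 and SNHG13, beside 0.121 for the snoRNA SNORA11. The ranks thus depend on lengths that are not given, and whether those fit the hosts was not tested. With 1 library each, no spread is known for these ranks.

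Starts of 11 of the 14 hosts were in the RefSeq promoter table (GRCh38.p14). A C followed by 4 pyrimidines at the annotated start was present in SNHG12, SNHG4 and SNHG5, 3 of 11, against 4.07% of all 35116 starts. Shown are 60 bases across these starts, with the C and its 4 pyrimidines in capitals, since the 3 hosts differ in response: SNHG4 was called lower and the other 2 were not.
SNHG12: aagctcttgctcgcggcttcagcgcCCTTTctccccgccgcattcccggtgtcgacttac
SNHG4: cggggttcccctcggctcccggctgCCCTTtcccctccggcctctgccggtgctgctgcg
SNHG5: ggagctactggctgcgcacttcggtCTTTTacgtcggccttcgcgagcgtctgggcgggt
They lie at chr1:28581839-28581898 (minus strand), chr5:139274076-139274135 (plus strand) and chr6:85678699-85678758 (minus strand). Known E2F motifs (TTTGGCGC, TTTCCCGC, TTTGCCGC and TTTCGCGC, both strands, from 250 bases before to 50 after the start) were found in 1 of 11 hosts, SNHG1, against 3.31% of all starts. Its TTTCGCGC lies 180 bases before the start, within chr11:62856032-62856091 (minus strand), and is in capitals here.
SNHG1: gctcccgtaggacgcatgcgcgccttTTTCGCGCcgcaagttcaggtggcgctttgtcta
A match describes these letters only, and their absence from a window says nothing about binding.

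Among box C/D snoRNAs, SNORD104, which guides a ribosomal RNA methylation, was the most strongly lower of the well-covered members. It had 480, 635, 346, 222 and 70 reads, or 6.06, 7.67, 4.45, 3.28 and 1.10 CPM. YFP-negative was highest, each later fraction was lower than the one before, and YFP-high lay 6.99-fold below YFP-negative (5.45 to 9.08). It was the box C/D member also called lower in YFP-high against parental. The 3 RABGGTB snoRNAs followed the same order among fractions but began from a lower parental level. SNORD45A had 157, 345, 169, 112 and 58 reads and was 4.58-fold lower in YFP-high (3.46 to 6.16). SNORD45B had 88, 228, 141, 64 and 32 reads and was 5.49-fold lower (3.78 to 8.21). SNORD45C had 68, 151, 71, 57 and 24 reads and was 4.85-fold lower (3.14 to 7.80). YFP-negative was the highest library for all 3, and YFP-high was not called lower than parental for any of them.

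Of the 7 snoRNAs of GAS5, 4 were called lower in YFP-high, beside 9.31% of all genes. SNORD44 had 83, 162, 81, 53 and 18 reads, SNORD77 had 21, 82, 20, 17 and 3, and SNORD74 had 17, 63, 30, 7 and 2. Their folds in YFP-high against YFP-negative were 6.93-fold lower (4.25 to 12.0), 21.1-fold lower (6.96 to 104) and 24.3-fold lower (6.44 to 205). YFP-negative was highest in each and the intervals widen as the reads in YFP-high run down to 3 and 2. SNORD78, also of GAS5, was called lower, 5.47-fold (2.81 to 11.9). SNORD79 had 13, 55, 25, 11 and 13 reads and SNORD75 had 3, 17, 12, 10 and 4, 3.26-fold (1.76 to 6.50) and 3.27-fold (1.07 to 13.4) lower without a call. SNORD81 had 6, 16, 8, 7 and 14 reads, with a fold of 1.14 between YFP-high and YFP-negative (0.514 to 2.48). The first 4 and the SNORD45C, SNORA79 and host-gene examples were picked after their values were seen.

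The other box C/D members called lower were SNORD35A, SNORD36A, SNORD93, SNORD22, SNORD12 and SNORD35B, from 2.86-fold (2.19 to 3.78) for SNORD22 to 10.01-fold (4.40 to 28.1) for SNORD93. Some box C/D members with many reads did not follow. SNORD17, in SNX5 and the box C/D member with the most reads in YFP-high whatever the length, had 526, 616, 607, 601 and 478 reads. Its level was 6.64, 7.44, 7.81, 8.87 and 7.49 CPM, with a fold of 1.01 between YFP-high and YFP-negative (0.892 to 1.14). SNORD110 had 73, 213, 171, 171 and 164 reads, or 0.922, 2.57, 2.20, 2.52 and 2.57 CPM. All 4 fractions lay together above parental, and it was called higher against parental in YFP-negative, with log2 ratio 1.11, and in YFP-high, with 1.11. SNORD96A (1.41-fold), SNORD16 (1.61-fold), SNORD88B (1.96-fold) and SNORD116-20 (1.90-fold) were lower in YFP-high without passing the rule. SNORD116 copies are near-identical, so reads of SNORD116-20 may belong to another copy.

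Among box H/ACA snoRNAs, SNORA33 had the most reads in YFP-negative, a rank that takes no account of length. It had 441, 827, 469, 326 and 169 reads, or 5.57, 9.99, 6.03, 4.81 and 2.65 CPM. YFP-negative stood far above the rest and YFP-high was 3.77-fold below it (3.19 to 4.47). SNORA70 had 292, 357, 208, 145 and 80 reads and was 3.44-fold lower (2.69 to 4.44), and it was called lower against parental as well. SNORA26 had 59, 91, 46, 11 and 5 reads and was 14.0-fold lower (5.79 to 44.2). SNORA79 had 69, 102, 42, 26 and 6 reads and was 13.1-fold lower (5.81 to 36.5). Both fell at every step and ended below parental by the 2-fold rule.

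SNORA8 (4.18-fold, 2.87 to 6.25), SNORA66 (4.32-fold, 2.76 to 7.06) and SNORA71B (7.96-fold, 3.46 to 22.5) completed the 7 lower calls. SNORA80B went the other way. It had 14, 40, 30, 40 and 107 reads. The first 4 libraries stayed at or under 0.590 CPM and YFP-high reached 1.68 CPM, 3.47-fold above YFP-negative (2.39 to 5.13). Scaled by total gene reads, its log2 ratio was 0.98 in place of 1.15 and it was no longer called. SNORA81 (2.17-fold), SNORA67 (2.18-fold), SNORA6 (1.86-fold), SNORA63 (1.55-fold) and SNORA11 (1.42-fold) were lower in YFP-high, below the rule, and the interval of SNORA51 included no change. SNORA70 and SNORA71B belong to families of similar copies, and their reads may be split among copies.

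A few members had no read in a library. SNORA69 had 12 reads in YFP-negative and 0 in YFP-high, at least 3.08-fold lower against a floor of 3 reads per library. SNORD73 had 11 reads in YFP-negative and 0 in YFP-high, at least 2.82-fold lower, and also 0 in YFP-low. SNORD1B had 16 reads in parental and 0 in YFP-high, at least 4.29-fold lower. SNORA70F had 0 reads in parental and 16 in YFP-high, at least 6.62-fold higher. None of the 4 reached 20 reads in any library.

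The deposited TPM values cover 25 members, 13 hosts, 11 SNORA and 1 SNORD. There SNORA33 stood at 8.01, 14.4, 8.56, 6.42 and 3.50 TPM, 4.10-fold lower in YFP-high than in YFP-negative, and SNORA8 was 4.54-fold lower. Reads per TPM grow with the transcript length that a table uses. SNORA33 had 1.26 and SNORA8 1.22 times the reads per TPM of GAS5, although the sequence of SNORA33 printed above has 130 bases. Whether these names stand for a longer transcript in the authors' tables was not tested. SNORA58 had 0.0141 times the reads per TPM of GAS5 and was 1.94-fold lower in TPM.

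Hosts and their own snoRNAs were then set side by side. Of 158 snoRNA members, 136 were matched by name in GENCODE 29, 18 in RefSeq only and 4 in neither. A host was found for 153, and for 139 the host was itself analysed, in 87 host genes. By the log2 ratio with 0.5 CPM, 85 of 139 snoRNAs (61.2%) lay below their host in YFP-high against YFP-negative. The share was 72.7% for YFP-medium and 69.1% for YFP-low. In YFP-negative against parental, 23.7% lay below. By the fold without a pseudocount, a measure added after the values were seen, 77.0% lay below in YFP-high and 12.9% in YFP-negative against parental. Against parental, 41.7% lay below in YFP-high by the log2 ratio and 54.7% by the fold, so the pattern in YFP-high turns on the YFP-negative library. Across the 139 pairs, which share libraries and in part hosts, Pearson's r between the log2 ratios was 0.44 and Spearman's rho 0.38.

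To keep thin snoRNAs from deciding this, reads of all snoRNAs of a host were summed and hosts with at least 100 such reads in 1 library were compared, a step added after the values were seen. There were 27 such hosts. A host could enter through 1 library alone, as ODC1 did through YFP-high and GTF2A1 through YFP-negative. In YFP-high against YFP-negative the counting interval of the snoRNA sum lay wholly below that of the host in 19, wholly above in 1 (ODC1) and overlapped in 7. In YFP-negative against parental it lay above in 22, below in 0 and overlapped in 5. In YFP-high against parental it lay below in 7, above in 7 and overlapped in 13. In these 27 hosts the snoRNA sums varied more than their hosts around YFP-negative, while YFP-high against parental showed no common direction. The part that the choice by highest snoRNA reads has in this was not tested.

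**Figure D4:**
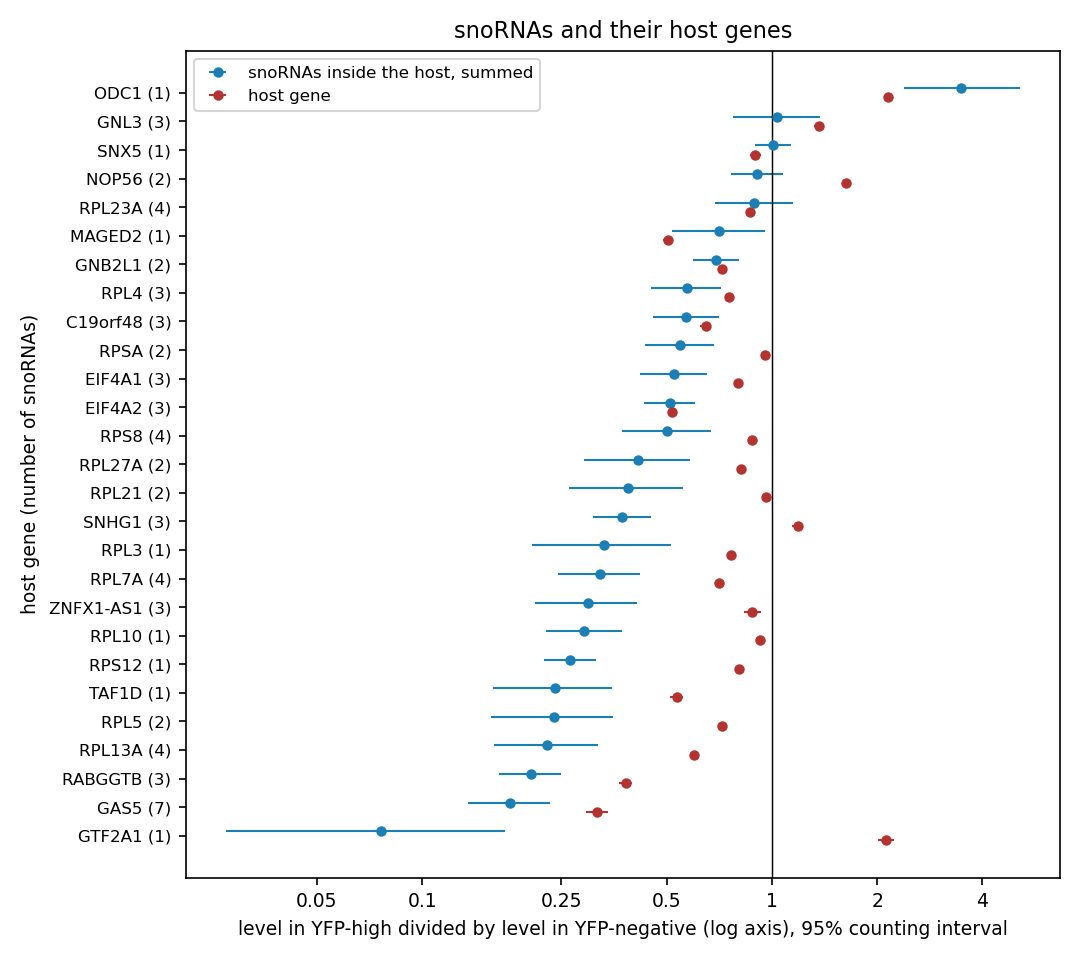
Level in YFP-high divided by level in YFP-negative (horizontal log axis) for 27 host genes (red) and the summed snoRNAs inside each (blue, number in brackets), with 95% counting intervals. The blue interval lies wholly left of the red one in 19 hosts, and ODC1 is the 1 host where it lies wholly right.

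In GAS5, 7 snoRNAs summed to 176, 466, 203, 120 and 64 reads, 5.61-fold lower in YFP-high (4.31 to 7.40) beside 3.16-fold for the host. Against parental both stood at like levels, with folds of 0.452 (0.334 to 0.604) and 0.460 (0.428 to 0.495). In SNHG1, SNORD22, SNORD28 and SNORD30 summed to 239, 483, 287, 183 and 139 reads, 2.68-fold lower in YFP-high (2.21 to 3.26), while the host was 1.19-fold higher. Here the host and its snoRNAs moved in opposite directions, and against parental as well, with folds of 0.722 (0.582 to 0.894) and 1.86 (1.78 to 1.93). In RABGGTB, a geranylgeranyl transferase subunit, the snoRNAs were 4.89-fold lower (4.01 to 6.01) and the host 2.62-fold (2.51 to 2.73).

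In several ribosomal protein genes the host differed less than its snoRNAs. RPS12 stood at 198, 181, 173, 162 and 146 CPM, 1.24-fold lower in YFP-high (1.21 to 1.27) beside 3.77-fold for SNORA33. RPL10 was 1.08-fold lower beside 3.44-fold for SNORA70. RPL13A was 1.67-fold lower (1.65 to 1.69) beside 4.38-fold for its 4 snoRNAs (3.15 to 6.24). Of the 44 snoRNAs in ribosomal protein genes, 43 had a log2 ratio below 0, beside 51.4% of all genes. Their median log2 ratio was -0.56 and that of their 24 hosts -0.29, both below the -0.03 of all genes. By the 2-fold rule, 6 of the 44 snoRNAs and 0 of the 24 hosts were called lower, beside 9.31% of all genes.

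In GTF2A1, a general transcription factor subunit, the host was 2.12-fold higher and SNORA79 13.1-fold lower. In ZNFX1-AS1, listed today as ZFAS1, the host was 1.14-fold lower (1.08 to 1.20) and its 3 snoRNAs 3.37-fold (2.43 to 4.74). SNHG13 was 2.56-fold lower beside 14.0-fold for SNORA26. In YFP-high against YFP-negative, the intervals of host and snoRNAs overlapped in EIF4A2 and GNB2L1. EIF4A2, a translation initiation helicase, was 1.93-fold lower (1.88 to 1.98) and its snoRNAs 1.96-fold (1.66 to 2.32). GNB2L1, listed today as RACK1, was 1.39-fold lower and its snoRNAs 1.44-fold (1.24 to 1.68). Against parental both pairs parted: in YFP-negative the snoRNA sums stood at folds of 2.20 (1.87 to 2.59) and 1.91 (1.64 to 2.24) and the hosts at 0.894 (0.877 to 0.912) and 1.09 (1.08 to 1.10). In YFP-high against parental the snoRNA intervals also lay wholly above those of the hosts, and in YFP-low against YFP-negative the snoRNA interval of EIF4A2 lay wholly below that of its host.

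In ODC1 both host and snoRNA were higher. ODC1, the first enzyme of polyamine synthesis, stood at 359, 513, 599, 848 and 1100 CPM and was 2.14-fold higher in YFP-high, beside 3.47-fold for SNORA80B. NOP56, itself a box C/D protein, stood at 140, 201, 257, 326 and 328 CPM, 1.63-fold higher, while its snoRNAs SNORA51 and SNORD110 summed to a level 1.10-fold lower (0.928 to 1.31).

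A gene-level count cannot tell a finished snoRNA from a host transcript that runs through the same bases. Of the members placed in GENCODE, 77 overlapped an exon of at least 1 annotated transcript of the host, and 59 overlapped none. Exons of all transcripts of a host were pooled. A snoRNA in an intron of 1 transcript can thus be placed over an exon of another. Ambiguous reads, those over more than 1 gene, were in no gene's count, and how many came from these members is not known. In YFP-high the median log2 ratio was -0.47 for those over exons and -0.21 for those in introns, with 10 of 77 and 7 of 59 called lower, beside 9.31% of all genes. The 46 and 42 hosts of these had medians of -0.26 and -0.19. The members over exons also had the higher median level, 0.700 beside 0.435 CPM in their highest library. Since no strand setting is known for the counting, a gene and its antisense partner cannot be told apart.

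Genes that build and process snoRNA particles were taken from lists written for these samples. No core protein was called in YFP-high against YFP-negative, where 9.31% of all genes were called lower and 16.9% higher. That is 0 of 4 box C/D proteins (median log2 ratio -0.32) and 0 of 4 box H/ACA proteins (median -0.39), beside -0.03 for all genes. Lists of 4 genes are too short to read 0 calls as a result. NOP56 had a log2 ratio of 0.71, while fibrillarin (FBL) had -0.31, NOP58 -0.32, NHP2L1 -0.47, dyskerin (DKC1) -0.32, NOP10 -0.46, GAR1 -0.45 and NHP2 -0.32. NOP56 thus stood apart from the other 7.

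Of 13 assembly factors, 2 were called lower and 0 higher, beside 9.31% and 16.9% of all genes. ZNHIT6, a box C/D assembly factor, stood at 37.8, 51.3, 44.4, 33.4 and 17.997 CPM, and NAF1, an assembly factor of box H/ACA particles, at 14.9, 21.7, 16.3, 14.6 and 9.20 CPM. Both were highest in YFP-negative and lowest in YFP-high. Of 19 processing and exosome genes, 2 were called lower, the nuclease DIS3 (log2 ratio -1.21) and the exosome subunit EXOSC7 (-1.10), beside 9.31% of all genes. The list median was -0.24, with 12 genes below 0 and 7 above, among the latter the exosome subunits EXOSC9 (0.54) and EXOSC8 (0.42). PAPD5, a poly(A) polymerase that adds short tails to snoRNA ends, was called higher (1.91), at 30.5, 38.1, 34.0, 36.2 and 144 CPM. Its first 4 libraries lay together and YFP-high stood alone.

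Of 14 nonsense-mediated decay factors, EIF4A3 was called higher (log2 ratio 1.16) and 0 lower, beside 16.9% and 9.31% of all genes, with a list median of 0.22. UPF1, the central helicase of the pathway, stood at 107, 117, 154, 213 and 219 CPM, with a log2 ratio of 0.90. SMG6 had a log2 ratio of 0.97. Of the 14 factors, 8 lay above 0 and 6 below, among the latter SMG8 (-0.60), RBM8A (-0.46) and MAGOH (-0.29). Of 49 protein-coding hosts, NAP1L4 was called higher (1.54), WDR43 lower (-1.36), beside the same shares of all genes, and the median was -0.26. Of 5 further hosts (C6orf48, ZNFX1-AS1, EPB41L4A-AS1, EP400NL and SNRPN) 0 were called in YFP-high against YFP-negative. Their median was -0.73, which is the value of C6orf48 alone. C6orf48, 1 of the 5, had 17, 105, 27, 24 and 36 reads. It was called lower in YFP-low (-1.06) and YFP-medium (-1.05), beside 0.0529% and 1.86% of all genes. In YFP-negative against parental it was called higher (1.31), beside 1.84%.

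Lists of other small RNAs had medians above 0. The 14 small Cajal body RNAs, close relatives of snoRNAs, had a median log2 ratio of 0.09, and 9 of 14 lay above 0. Among them 1 was called higher (SCARNA7) and 0 lower, beside 16.9% and 9.31% of all genes. Only SCARNA12, SCARNA17 and SCARNA22 reached 100 reads in a library, so the 0.5 CPM pulls the log2 values of the others towards 0. All genes with 10 to 99 reads in their highest library had a median of 0.03. The 7 other small RNAs had a median of 0.08 with 0 called, among them RMRP at 2.70, 1.65, 2.74, 6.62 and 2.84 CPM. The difference between these lists and the snoRNA classes was not tested.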

How the data were processed

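RNA of 5 libraries, 1 per group, was sequenced on a HiSeq 4000, per the labels' protocols. The authors deposited raw read counts per gene name and a table of TPM. The submitters' processing notes name HTSeq 0.6.0, HISAT2 2.0.3, Trimmomatic 0.36, CASAVA 1.8.2, bcl2fastq and hg19. The sources used here give no annotation, no strand setting and no tool for the TPM. Reads of 5 HTSeq classes and of a nameless entry (at most 0.00073% of reads) were left out.

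Counts of genes with at least 10 reads in 1 library were scaled by TMM in edgeR 4.0.16 under R 4.3.3, and ratios were computed in Python 3.11.15 with scipy 1.17.1. Folds and sums carry exact 95% Clopper-Pearson counting intervals, which cover counting error only. Alternatives were DESeq2 1.42.0 size factors, total gene reads, other filters, pseudocounts and size rules, TPM, and parental as baseline. Named members were hosts with at least 5 CPM, the 10 of each snoRNA class with the highest CPM, up to 6 called per direction and comparison, and those at the edge of the read minimum. From each list, up to 3 genes with the largest log2 ratio and at least 5 CPM were named, and others were chosen after their values were seen, as were the sequences shown.

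Members, lists and rules were chosen with earlier results of these data known. The comparison of snoRNAs with hosts was planned on log2 ratios with a pseudocount. A fold without it, sums per host, read ranges, the exon and intron split, host kinds, the interval alone and sums without the 3 most abundant members were added after values were seen. Hosts were found by position in GENCODE 29 or RefSeq (GRCh38.p14), and readthrough or overlapping names were dropped by hand. Of 55 pairs written by hand, 55 had the same host.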

Additional observations from a re-analysis of the deposited data

How the results depend on the processing

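Each group had 1 library, so no result has a replicate check and no library could be left out within a group. No paired analysis was possible because each group holds 1 library. Depth limits most snoRNAs, whose highest library held fewer than 100 reads in 77 of 94 box C/D and 50 of 64 box H/ACA members. Of the counts, medians, sums and shares recomputed under alternatives, 139 kept their direction and stayed within 1.5 times (counts) or within the counting or order-statistic interval (others), 99 moved and 3 reversed. For the named members, 1144 values stayed, 99 moved, 27 lost a call and 0 reversed. Where a cause is not given below, it was not tested.

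With parental in place of YFP-negative, members called in YFP-medium were 2 lower and 1 higher, for which no share of all genes is given. In YFP-high 10 were called lower and 2 higher, beside 12.0% and 17.9% of all genes. The box C/D median in YFP-low reversed to 0.094 and the box H/ACA median to 0.085, and the host median was -0.039. Medians were -0.037 for box C/D and -0.070 for box H/ACA in YFP-medium, and -0.14 and -0.14 in YFP-high. Sums in YFP-high were 1.30-fold, 1.39-fold and 1.27-fold lower for box C/D, box H/ACA and hosts.

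The pseudocount set the size of the log2 ratios by construction, since most members are low. With 2 CPM, 1 member was called lower in YFP-medium, 9 lower and 0 higher in YFP-high, and 1 higher in YFP-negative against parental. Medians for box C/D and box H/ACA were -0.073 and -0.071 in YFP-low, -0.11 and -0.075 in YFP-medium, -0.14 and -0.13 in YFP-high, and 0.10 and 0.078 in YFP-negative against parental. With 0.1 CPM, 12 were called lower and 1 higher in YFP-low, 42 and 1 in YFP-medium, 70 lower in YFP-high, and 1 lower and 27 higher in YFP-negative against parental. Medians were then -0.31 and -0.40, -0.68 and -0.48, -0.88 and -0.76, and 0.56 and 0.45 in the same order. The 1.5-fold rule called 59 lower in YFP-high, 44 in YFP-medium and 17 in YFP-low, and 31 higher in YFP-negative against parental. Shares of all genes under these pseudocounts and this rule are not given. The counts therefore show the change of rule only and are no result about the members.

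Filters change which members enter. At 1 CPM, with 26 box C/D and 17 box H/ACA members, medians were -0.40 and -0.39 in YFP-low, -0.60 and -0.46 in YFP-medium, -0.86 and -0.79 in YFP-high, and 0.63 and 0.54 in YFP-negative against parental, and the box H/ACA sum was 2.33-fold lower. At 50 reads, with 43 and 26, they were -0.39 and -0.33, -0.59 and -0.41, -0.80 and -0.62, and 0.49 and 0.53. Without a filter, with 145 and 90, they were -0.068 and -0.059, -0.13 and -0.10, -0.13 and -0.21, and 0.12 and 0.13.

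Scaling by total gene reads shifted the median of all genes by -0.18 for YFP-high against YFP-negative and by -0.15 for YFP-medium, and 15.4% of all genes were then called lower and 13.4% higher in YFP-high. Members called lower were 20 in YFP-medium and 1 in YFP-low, beside 4.21% and 0.0952% of all genes. None (0) were called higher in YFP-high, where the box H/ACA median was -0.46 and sums were 2.47-fold, 2.55-fold and 1.97-fold lower. With DESeq2 size factors the host sum was 1.58-fold lower. SNORA80B lost its call under total gene reads.

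In the deposited TPM, with 1 SNORD, 11 SNORA and 13 hosts, 11 members were lower and 0 higher in YFP-high by the size rule alone. The share of all genes under that rule is not given. The values of the SNORD and the medians of the SNORA were -0.45 and -0.48 in YFP-low, -0.81 and -0.51 in YFP-medium, -0.95 and -0.95 in YFP-high, and -0.14, a reversal that rests on that 1 name (SNORD116-20), and 0.61 in YFP-negative against parental.

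Alternatives added after seeing the data were these. The counting interval alone put 65 members lower and 7 higher in YFP-low, 82 and 5 in YFP-medium, 99 and 7 in YFP-high, and 3 lower and 83 higher in YFP-negative against parental. Without the 3 most abundant members, sums in YFP-high were 2.22-fold, 1.83-fold and 1.69-fold lower. By the fold without a pseudocount, 78.4% of snoRNAs lay below their host in YFP-low, 77.0% in YFP-high and 12.9% in YFP-negative against parental, beside 69.1%, 61.2% and 23.7% by the planned log2 ratio. With pairs written by hand, all 4 shares stayed within their intervals.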
